A study of Mus musculus with 15 samples.

Results

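The response of resting mouse spleen B cells to 4 h of lipopolysaccharide (LPS) was measured on 3 arrays and set against 3 arrays of the same kind of cell at 0 h. These 6 arrays belong to a series of 15 in 5 groups of 3, and the arrays were chosen by their titles. The B cells were described as quiescent, came from spleens of B6x129 mice, a mixed background, and were kept in RPMI 1640 medium. LPS was given at 25 µg per ml for 4 h, and the 0 h cells had received none. The remaining 9 arrays hold spleen T cells of the same background at 0 h and after 4 h or 14 h with concanavalin A (ConA), a plant lectin that activates T cells, at 7.5 µg per ml. Total RNA was extracted with Trizol and hybridised to Affymetrix mouse expression arrays, on which a gene is read by sets of short probes near its 3′ end. Of 18194 genes with a probe set of their own, the 9045 with a group mean of at least 5 in any of the 5 groups were tested, and all of them are covered by the counts below.

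The labels name neither the sex nor the age of the mice nor how B cells were separated, and they do not say whether the 3 arrays of a group came from separate mice, so the p-values measure only the spread between these arrays. No group was cultured for 4 h without LPS, so LPS and the time in culture cannot be told apart. Xist, a transcript of female cells, had a mean of 12.0 at 0 h and 2.35 after LPS. A difference in sex between the groups therefore cannot be told apart from LPS either. Levels are log2 signals as deposited, and the lowest value in the table is 2.24, which held 38.7% of all values on the B cell arrays. A probe set can also have a floor of its own a little higher, at which several arrays read exactly alike. A change from or to a floor is a lower bound, and is given as "at least". Of the genes named, 40 changed with a mean under 3 in the lower group, at or near a floor, and the sizes printed for them are best taken as lower bounds, whatever their standard error. Arrays at a floor show little or no spread, so the standard errors and p-values of such genes may be too small. A difference is the LPS mean minus the 0 h mean on the log2 scale, so 1 is 2-fold, and is given ± its standard error from limma, with 3 arrays in each group. "Rose" and "fell" are kept for genes with an adjusted p under 0.05 over all 9045 genes.

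LPS is a lipid of the outer membrane of Gram-negative bacteria. B cells bind it through Tlr4 with its partner Ly96 (MD-2), and Cd180 with its partner Ly86 is a related receptor pair of B cells. Signalling through Myd88 and Ticam1 frees NF-kappaB from its inhibitors, switches on AP-1 and, by way of interferon regulatory factors and type I interferon, a set of antiviral genes. In B cells, unlike most white blood cells, LPS is also a mitogen: over the following days the cells enlarge, divide and many of them become antibody-secreting plasma cells. The 4 h time point lies within the growth phase that precedes DNA synthesis, when Myc, a transcription factor that dimerises with Max and binds the E-box, is high.

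The sequences of 6 features are shown, a mature miRNA whose host transcript rose and stretches upstream of genes that rose. In these stretches the letters these factors are known to recognise can be seen in place. The promoters were picked among genes that rose and hold such a match, so the matches shown were fixed by that choice. Genes with larger rises were passed over where no match was on hand. Ifih1 (3.63) held a match too, but after the start site and so outside the stretch printed, and is not shown. The first is the mature miR-155-5p, with its seed (bases 2 to 8) in capitals, since its host transcript Mir155hg was among the largest rises. The others are the 250 bases upstream of the start sites of 3 chemokine and cytokine genes, with matches to the NF-kappaB consensus in capitals (the Cxcl10 stretch also holds a match to the core of the interferon-stimulated response element, GAAANNGAAA), and of 2 antiviral genes, with matches to that core in capitals. All are from RefSeq on GRCm38.p6, written 5′ to 3′ on the strand of the gene.
miR-155-5p, chr16:84714143-84714165, plus strand: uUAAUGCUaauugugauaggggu
Cxcl10, chr5:92348890-92349139, minus strand: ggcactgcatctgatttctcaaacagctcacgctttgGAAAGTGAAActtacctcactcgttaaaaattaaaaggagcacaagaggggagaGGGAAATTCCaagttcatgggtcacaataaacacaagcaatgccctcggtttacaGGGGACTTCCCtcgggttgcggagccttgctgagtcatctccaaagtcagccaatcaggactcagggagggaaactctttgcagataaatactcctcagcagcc
Il6, chr5:30012864-30013113, plus strand: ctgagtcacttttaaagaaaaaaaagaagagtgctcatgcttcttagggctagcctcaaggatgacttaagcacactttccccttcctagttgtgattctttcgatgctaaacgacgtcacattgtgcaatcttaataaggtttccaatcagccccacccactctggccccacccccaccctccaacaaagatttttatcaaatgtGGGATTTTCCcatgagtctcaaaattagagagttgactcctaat
Cxcl2, chr5:90903649-90903898, plus strand: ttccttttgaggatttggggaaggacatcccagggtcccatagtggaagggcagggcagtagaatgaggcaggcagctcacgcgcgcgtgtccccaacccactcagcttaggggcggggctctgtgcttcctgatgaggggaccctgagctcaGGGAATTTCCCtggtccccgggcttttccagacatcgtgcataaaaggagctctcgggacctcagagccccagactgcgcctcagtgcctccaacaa
Ifit1, chr19:34640639-34640888, plus strand: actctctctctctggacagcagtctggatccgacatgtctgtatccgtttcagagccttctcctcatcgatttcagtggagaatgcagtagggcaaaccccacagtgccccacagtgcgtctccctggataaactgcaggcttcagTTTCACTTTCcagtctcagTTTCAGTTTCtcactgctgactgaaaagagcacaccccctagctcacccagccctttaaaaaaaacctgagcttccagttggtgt
Ifit3, chr19:34583279-34583528, plus strand: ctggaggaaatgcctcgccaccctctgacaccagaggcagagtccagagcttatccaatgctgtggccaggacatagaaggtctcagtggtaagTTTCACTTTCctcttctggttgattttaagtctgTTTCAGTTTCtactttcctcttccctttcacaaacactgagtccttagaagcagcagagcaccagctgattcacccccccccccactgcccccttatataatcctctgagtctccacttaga

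A promoter sequence, from 250 bases before to 50 after the start site, was on hand for 7431 of the 9045 genes, and both strands were searched. A gene was counted as holding a match if any of its promoters did. Shares of the table count single promoters instead, so the 2 kinds of share are not fully alike. The core GAAANNGAAA lay in 12 of the 26 antiviral genes with a promoter on hand (46.2%), against 3.94% of all such tested genes and 3.44% of all 32851 promoters in the table. The NF-kappaB consensus lay in 10 of 17 genes of NF-kappaB subunits and inhibitors (58.8%) and in 3 of 8 chemokine genes (37.5%), against 10.1% of tested genes and 7.86% of the table. It also lay in 8 of 37 B cell receptor signalling genes (21.6%), a list in which 34 of 42 fell. Genes that fell at least 2-fold held it in 9.52% of cases. The E-box CACGTG lay in 15 of 64 nucleolar rRNA genes (23.4%), against 12.7% of tested genes and 7.15% of the table. Among all genes that rose at least 2-fold the shares were 4.82% for the interferon core, 12.0% for the NF-kappaB consensus and 16.8% for the E-box, so over the whole response these letters were only a little more common than in the background. A match says that the letters are present, and not that a factor bound there.

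In all, 7224 of the 9045 genes changed (79.9%), 3400 upward (37.6%) and 3824 downward (42.3%), and the arrays of both groups did not overlap for 7382 genes (81.6%). A call alone therefore says little about a gene, and sizes are given throughout: 1689 genes rose at least 2-fold (18.7%) and 2181 fell at least 2-fold (24.1%), with a median difference over all genes of -0.05. The counts given below for groups of genes are to be read against these shares. The falls reached further than the rises. At least 16-fold rises were found for 89 genes and at least 16-fold falls for 201. From a level of at least 7 to one under 3 went 58 genes, against 23 that went the other way. The 58 include the macrophage markers C1qa, C1qc, Cd163, Csf1r and Mrc1. The part of macrophages in the excess of deep falls was not tested. Falls were most common among genes of modest level: 51.3% of genes with a mean level between 5 and 7 fell and 27.8% rose, while between 9 and 11 the shares were 38.0% and 46.0%. When all probe sets of a gene were averaged, dim ones included, the values of several genes described below moved by over 1.5 times in size, among them Marchf1 (-5.74), Mxd4 (-2.55), Nr4a3 (2.58) and Cdkn1b (-1.36).

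**Figure D1:**
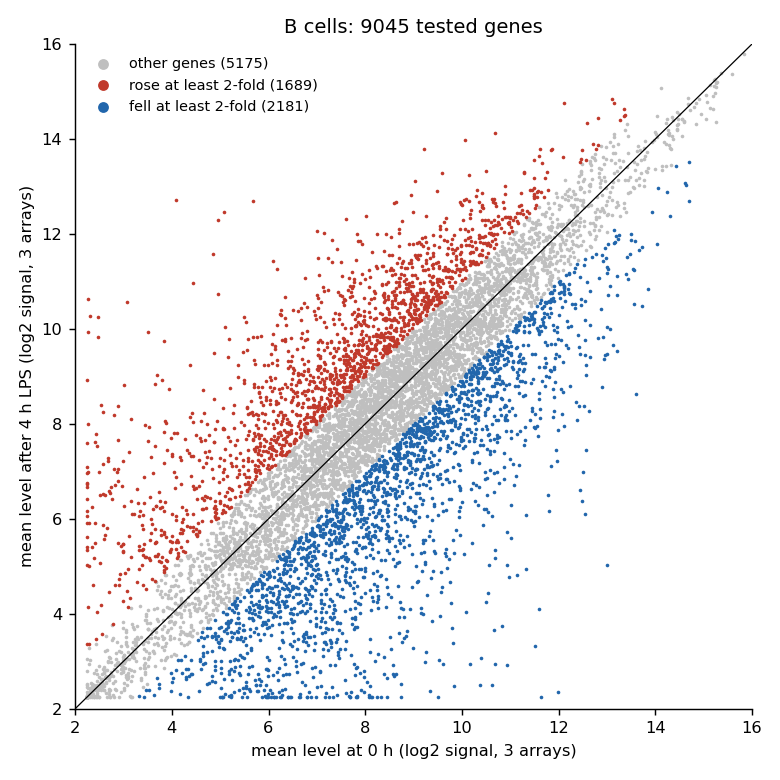
Mean log2 level of each of the 9045 tested genes on the 3 arrays at 0 h (x axis) against the 3 arrays after 4 h with LPS (y axis); points are genes, coloured where they rose or fell at least 2-fold, and the diagonal marks no change. The 1689 coloured rises lie above the diagonal and the 2181 falls below it, with a band along the bottom for genes that fell to the floor of 2.24.

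Libraries within a group were alike, with correlations over probe sets of 0.996 to 0.998, against 0.938 to 0.940 between the groups. All 15 B cell marker genes on the array were above 3 in both groups, and 13 of them fell after LPS, with a median of -1.20 and a summed level of 17.5 at 0 h and 16.3 to 16.4 after LPS. The summed level of T cell markers was 7.08 to 7.38 over the 6 arrays, and 7 of the 14 were under 3 at 0 h. Markers of several other spleen cells were present at 0 h and lower after LPS. The 14 tested genes of red pulp macrophages, which clear old red cells, all fell at least 2-fold, and their summed level was 12.8 to 12.9 at 0 h and 7.24 to 7.52 after LPS. Of the 14 tested monocyte and macrophage genes 13 fell, among them C1qa, a complement subunit, from 9.34, 9.64 and 9.52 to 2.24 on all 3 LPS arrays, and Csf1r, the receptor of the macrophage growth factor, which fell by 6.97 ± 0.13. All 14 tested erythroid genes fell as well, by less, with a median of -1.38, as did the neutrophil genes S100a8 (-3.01) and S100a9 (-3.23). Dendritic cell genes were the exception: 4 of 5 tested rose, Zbtb46 (4.62), Bst2 (2.63), which interferon also induces, Flt3 (2.29) and Irf8 (0.29, adjusted p = 0.057 without LPS replicate 2), while Itgax fell by 3.74 ± 0.06 and Xcr1 and Siglech were at or near the floor. In these bulk samples fewer cells of a type and less RNA per cell cannot be told apart. Where a fall above or below concerns a gene that macrophages also express, the part of these cells in it was not tested.

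**Figure D2:**
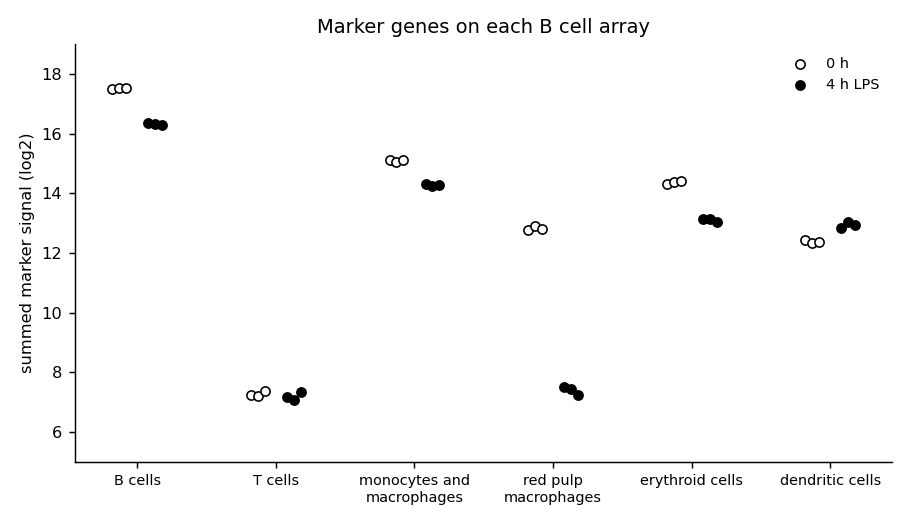
Summed log2 signal of marker genes of 6 kinds of cell on each of the 6 B cell arrays; points are arrays, open at 0 h and filled after LPS. B cell markers lie between 16.3 and 17.5, T cell markers between 7.08 and 7.38, and red pulp macrophage markers drop from at least 12.8 to at most 7.52.

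The receptors for LPS were lower after LPS. Tlr4, which binds LPS together with Ly96, read 7.30, 6.67 and 6.98 at 0 h and 2.24 on all 3 LPS arrays, a fall of at least 4.74 on the log2 scale (adjusted p = 1.0e-13; log2 difference -4.74). Ly96 read 6.95, 7.08 and 6.64 at 0 h and 2.93, 2.80 and 2.86 after LPS. Cd180 read 6.99, 7.13 and 7.40 at 0 h and 3.99, 3.94 and 3.56 after LPS. For all 3 genes every LPS array lay below every 0 h array. Ly86 fell too, by less (-0.70), from a high level of 13.34. Among the other Toll-like receptors, Tlr3 (double-stranded RNA), Tlr1 and Tlr6 (lipopeptides) fell, with differences of -3.88, -1.91 and -1.72, as did Unc93b1 (-1.20), which carries the nucleic acid-sensing receptors to endosomes. Tlr7, a sensor of single-stranded RNA, rose by 1.04 ± 0.06, and was the one receptor of this list to rise at least 2-fold. Of the 10 tested members 7 fell at least 2-fold (70.0%, against 24.1% of all genes). Tlr2, Tlr5, Tlr8, Tlr9, Cd14 and Lbp stayed under the level filter. Macrophages also carry Tlr4, and the macrophage marker values above move the same way.

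Downstream of the receptors the adaptors and kinases split. Ikbke, a kinase that phosphorylates interferon regulatory factors, read 6.39, 6.14 and 6.80 at 0 h and 9.23, 9.24 and 9.17 after LPS and rose by 2.77 ± 0.12. Traf6, the ubiquitin ligase of the Myd88 arm, rose by 1.99 ± 0.13, and Myd88 itself by 1.12 ± 0.08. Those that fell most were Tifa (-4.30), an adaptor of Traf6, and Sigirr (-4.03), Irak2 (-2.09) and Irak3 (-1.87). Sigirr and Irak3 restrain signalling, while Irak2 carries it. Of 24 tested members 8 rose (33.3%, against 37.6% of all genes) and 13 fell (54.2%, against 42.3%), and 5 fell at least 2-fold (20.8%, against 24.1%), with a median of -0.25, so the list as a whole was near the background.

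NF-kappaB genes rose as a group: 15 of 20 rose, 12 of them at least 2-fold (against 18.7% of all genes), and the median was 1.18. Traf1, an adaptor of TNF receptors, rose most, from 7.99, 7.94 and 7.54 to 11.94, 12.00 and 12.09, a difference of 4.19 ± 0.10. Inhibitors of the pathway were prominent. Nfkbiz, a nuclear cofactor needed for secondary genes such as Il6, read 10.04, 10.18 and 9.95 at 0 h and 14.04, 13.98 and 13.94 after LPS. Tnfaip3 (A20), a ubiquitin editor that ends signalling, read 8.99, 8.92 and 9.04 at 0 h and 12.50, 12.46 and 12.43 after LPS. Both sets of arrays were well apart for these genes. Nfkbid (2.80), Nfkbib (2.58), Bcl3 (2.35) and Nfkbia (1.29) also rose. Of the subunits, Rel, the main B cell subunit, rose by 2.82 ± 0.16, Nfkb2 by 1.59 ± 0.12 and Relb by 1.08 ± 0.09, whereas Rela was at 10.56 and 10.62 and did not pass (0.06). The deubiquitinases Cyld (-1.09) and Otulin (-1.09) and the I-kappaB-binding Nkiras1 (-1.46) fell.

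Immediate early factors were still high at 4 h. Jun, a subunit of AP-1, read 5.92, 6.22 and 4.89 at 0 h and 12.73, 12.67 and 12.70 after LPS, a difference of 7.02 ± 0.23. Nr4a3, an orphan nuclear receptor induced by antigen receptors and LPS, read 2.82, 3.55 and 2.84 at 0 h and 10.58, 10.59 and 10.55 after LPS. Batf, a partner of Jun and Irf4 in B cells, rose by 4.46 ± 0.09, Fos by 3.99 ± 0.11, Atf3 by 5.34 ± 0.14 and Nr4a1 by 5.06 ± 0.11. In all 19 of 24 rose, 15 at least 2-fold (62.5%, against 18.7% of all genes), with a median of 1.91. Of these 24, 7 had a 0 h mean under 5 and were tested only for their level in another group. The Egr factors, induced by antigen receptor and ERK signalling, took another course: Egr1 rose by 0.74 ± 0.08 and Egr2 by 0.49 ± 0.14, while Egr3 fell from 11.18, 11.33 and 11.23 to 9.04, 8.85 and 8.83 and its corepressors Nab1 (-0.73) and Nab2 (-1.15) fell too. Jund, at 11.15 and 11.16, and Srf (0.16) did not pass.

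Type I interferon targets rose almost without exception. Of 36 tested antiviral genes 35 rose and none fell, 31 rose at least 2-fold (against 18.7% of all genes), and the median was 2.04. Ifit1, which binds viral RNA caps, read 2.35, 2.75 and 2.31 at 0 h and 9.85, 9.80 and 9.85 after LPS, a difference of 7.36 ± 0.22 (adjusted p = 8.6e-13). Oasl1 read 6.03, 4.75 and 4.10 at 0 h and 12.25, 12.35 and 12.26 after LPS, with more scatter at 0 h. Mx2 read 2.24 on all 0 h arrays and 6.61, 6.80 and 6.84 on the LPS arrays, a rise of at least 4.51. The RNA sensor Ifih1 (Mda5) rose by 3.63 ± 0.11, its relative Dhx58 by 2.84 ± 0.14, Usp18, a brake on the interferon receptor, by 5.09 ± 0.13, and Eif2ak2 (PKR), which halts translation, by 2.49 ± 0.18. Ifit3, whose upstream stretch is printed above beside that of Ifit1, read 8.42, 8.40 and 8.31 at 0 h and 11.77, 11.59 and 11.59 after LPS. The single member that did not pass was Trim21 (0.14). Ifnb1, the interferon gene that LPS induces in macrophages, was at or near the floor on all 6 arrays, at most 2.30.

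The factors that carry interferon and cytokine signals were uneven. Irf7, the amplifier of interferon genes, rose from 7.11, 6.66 and 7.11 to 10.25, 10.38 and 10.26. Stat5a (3.89), Stat4 (2.75), Stat3 (2.52) and Irf9 (1.38) rose, as did Irf4, which drives B cell activation, by 2.62 ± 0.19. Irf2, a repressor of interferon targets, fell by 2.15 ± 0.14, and Jak3 (-1.13) and Tyk2 (-0.93) fell. Irf5 (0.01) and Jak1 (-0.08) did not pass. Nor did Stat2 (0.74), whose groups did not overlap but whose standard error over all 15 arrays was 0.49; it passed when the 6 B cell arrays were fitted alone (limma, adjusted p = 0.00024) or its probe sets were averaged (0.97, adjusted p = 0.012). Targets of interferon gamma, by contrast with the antiviral genes, were mixed. The GTPases Gbp6 (2.80) and Irgm1 (2.63) rose, whereas Gbp8 fell from 9.62, 9.68 and 9.45 to 4.54, 4.36 and 4.83 and Gbp7 (-0.94) and Gbp3 (-0.42) fell. In all 5 of 9 rose (55.6%, against 37.6% of all genes) and 3 fell (33.3%, against 42.3%).

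**Figure D3:**
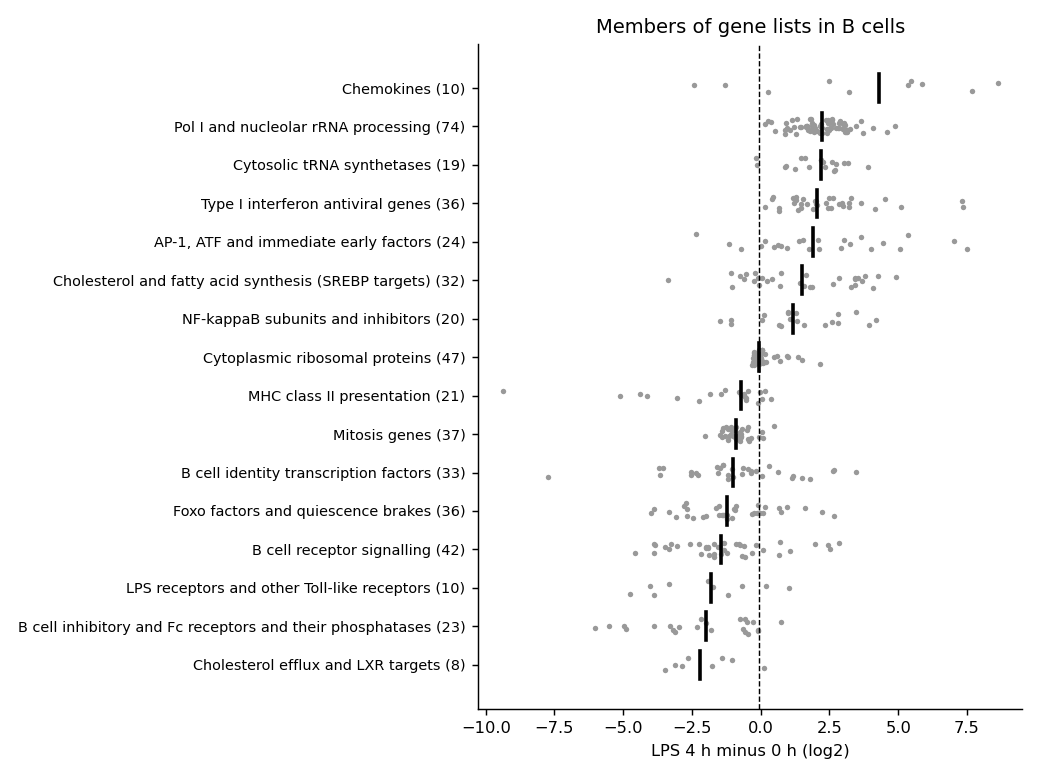
Difference between LPS and 0 h (log2, x axis) of every tested member of 16 gene lists (rows); grey points are members, the black bar is the list median, and the dashed line is the median of all 9045 genes, -0.05. Antiviral, nucleolar and tRNA synthetase members lie to the right, with medians of 2.04, 2.23 and 2.20, and inhibitory receptors and cholesterol efflux genes to the left, with medians of -1.99 and -2.20.

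The largest rises of any tested gene were those of secreted signals, Cxcl10 and Il6. Cxcl10, a chemokine for activated T cells, read 3.70, 4.16 and 4.40 at 0 h and 12.63, 12.76 and 12.73 after LPS, a difference of 8.62 ± 0.16. Il6, a B cell and plasma cell growth factor, read 2.34, 2.24 and 2.24 at 0 h and 10.60, 10.64 and 10.66 after LPS. Ccl3 read 2.24, 2.24 and 2.35 at 0 h and 9.89, 9.88 and 10.06 after LPS. None of these genes was above 4.40 on a 0 h array. Cxcl2 was at the floor on all 0 h arrays and at 7.69, 7.55 and 7.58 after LPS. Ccl4 (5.48), Ccl22 (5.86) and Ccl5 (3.21) rose too. In all 7 of 10 tested chemokines rose, each at least 2-fold (70.0%, against 18.7% of all genes), with a median of 4.29. Of these 10, 8 had a 0 h mean under 5 (936 of all 9045 genes did) and were tested only for their level in another group. The level filter thus favoured rises in this list. Ccl6 fell by 2.43 ± 0.24. Cxcl9 was under 5 on every B cell array and was tested only because of its level in T cells, and the macrophage chemokines Ccl2 and Ccl7 were at 2.24 on all 6 arrays. Of 22 tested cytokines 13 had a 0 h mean under 5, so the filter favoured rises here too. Of the 22, 11 rose (50.0%, against 37.6% of all genes) and 5 fell (22.7%, against 42.3%). Among them Il1b rose by 6.73 ± 0.15, Ebi3, a subunit of IL-27 and IL-35, by 3.43 ± 0.10, and Csf1 by 3.90 ± 0.24. Il10, which B cells make to restrain immunity, was at 2.26 on all 0 h arrays and at 6.92, 6.98 and 7.02 after LPS. Il12b (4.17), Il1a (4.44) and the antagonist Il1rn (3.16) rose from the floor and so by at least these amounts. Tnf, the textbook LPS target, rose by only 1.0 ± 0.12 at 4 h. The lymphotoxins, which B cells use to organise lymphoid tissue, went the other way: Ltb fell from 12.99, 13.01 and 13.09 to 10.65, 10.67 and 10.82 and Lta (-1.32) fell, as did Il16 (-2.50), Il18 (-2.23) and Il12a (-2.16). The T cell cytokines Il2 (-0.09), Il4 (0.17) and Ifng (-0.35) did not pass, and none was above 4.24 on any array. Macrophages can make several of these signals; their marker genes fell in the same comparison, and the part of these cells in the signals was not tested.

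The receptors through which B cells hear cytokines also shifted. Il2ra, the alpha chain of the IL-2 receptor, read 2.41, 2.41 and 2.59 at 0 h and 10.19, 10.31 and 10.27 after LPS, a difference of at least 7.79 ± 0.13. The decoy receptor Il1r2 rose by 4.00 ± 0.09, Tnfrsf1b by 3.14 ± 0.20, Il7r by 3.02 ± 0.17 and Il21r by 1.26 ± 0.12. Receptor chains for IL-10, type I interferon, IL-6 and TGF-beta were lower: Il10ra (-1.70), Il10rb (-1.51), Ifnar1 (-1.08), Il6st (-1.35) and Tgfbr2 (-1.96). Il27ra fell from 7.71, 7.80 and 7.86 to 4.26 on all LPS arrays, while Ebi3, a subunit of its ligand, rose. Over the list 8 of 28 rose (28.6%, against 37.6% of all genes) and 15 fell (53.6%, against 42.3%), 12 of them at least 2-fold (42.9%, against 24.1%).

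Of 21 tested receptors that guide B cells within and out of the spleen 7 rose (33.3%, against 37.6% of all genes) and 11 fell (52.4%, against 42.3%), 7 of them at least 2-fold (33.3%, against 24.1%), and single members moved far. S1pr1, the sphingosine phosphate receptor that lymphocytes need to leave tissue, fell from 11.51, 11.47 and 11.57 to 3.62, 2.91 and 3.43, a difference of -8.20 ± 0.14. Cd69, whose protein removes S1pr1 from the surface, rose from 9.64, 9.62 and 9.52 to 13.37, 13.44 and 13.02. Klf2, the factor that sustains S1pr1 transcription, fell by 2.79 ± 0.07. S1pr3 (-4.36), which holds marginal zone B cells in place, S1pr4 (-5.11) and the cannabinoid receptor Cnr2 (-4.48) fell as well. Ccr7, the receptor that draws activated B cells to the T cell border, read 10.70, 10.79 and 10.54 at 0 h and 14.11, 14.07 and 14.17 after LPS. Cxcr5, which keeps B cells in follicles, rose by 0.80 ± 0.16. Ackr2 and Ackr3, scavenging chemokine receptors of marginal zone B cells, fell by at least 5.89 and by 2.30 ± 0.07.

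Adhesion genes were mostly lower, with 15 of 25 falling (60.0%, against 42.3% of all genes), 12 at least 2-fold (48.0%, against 24.1%), and 8 rising (32.0%, against 37.6%). Itgb7, a chain of the gut-homing integrin, fell from 7.83, 7.68 and 7.77 to 2.93 on all LPS arrays, and Cd55, which shields cells from complement, by 4.16 ± 0.14. Cd2 (-5.21), Pecam1 (-2.30), Itgb2 (-1.53) and Itga4 (-1.47, or -0.77 from another probe set) also fell. Vcam1 fell by 6.32 ± 0.14; it is a marker of red pulp macrophages, whose other markers fell alike. Cd44 (2.83) and Icam1 (2.43), both known on activated B cells, rose.

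The antigen receptor and its relay were lower after LPS. Of 42 tested genes 34 fell, 26 at least 2-fold (against 24.1% of all genes), 7 rose, and the median was -1.45. Cd79a and Cd79b, the signalling chains of the receptor, fell by 2.57 ± 0.07 and by 2.0 ± 0.09. Btk, the kinase missing in X-linked agammaglobulinaemia, read 9.97, 10.04 and 9.86 at 0 h and 6.72, 6.36 and 6.73 after LPS. Rasgrp1, which activates Ras, read 10.68, 10.58 and 10.61 at 0 h and 6.21, 5.91 and 6.06 after LPS. The adaptors Bank1 (-3.25) and Dapp1 (-3.05), the phospholipase Plcg2 (-1.87), the kinases Blk (-1.68) and Syk (-1.23), the calcium release channels Itpr3 (-3.86) and Itpr2 (-3.50), and Nfatc2 (-3.86) and Nfatc1 (-1.47) fell. Malt1, which links the receptor to NF-kappaB, fell by 1.55 ± 0.08, and its partner Bcl10 by 0.56 ± 0.11 (a call lost when its probe sets were averaged, at -0.33). The rises were fewer: the Src-family kinase Fyn (2.52), the calcium channel Orai1 (2.84), Ifitm3 (2.46), which is also an interferon target, and the ubiquitin ligase Cblb (1.06).

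Inhibitory receptors and their phosphatases fell too. Cd22, a lectin that recruits the phosphatase Ptpn6, read 13.56, 13.58 and 13.65 at 0 h and 8.80, 8.88 and 8.24 after LPS, a difference of -4.96 ± 0.15. Ceacam1 read 8.18, 8.16 and 8.42 at 0 h and 2.24 on all LPS arrays. Dok3 fell by 5.51 ± 0.10, Pirb by 4.90 ± 0.12, Siglecg by 3.86 ± 0.10 and Ptpn22 by 3.31 ± 0.08. The phosphatases Ptpn6 (-1.99) and Inpp5d (-1.81) fell less. Fcrl1 (-0.08) and Cd200 (-0.12) did not pass. Fcgr2b (-0.45) and Fcer2a (-0.30) did not pass with the spread of all 15 arrays but did in limma on the 6 B cell arrays alone (adjusted p = 0.00051 and 0.0029), and Cd72 alone rose, by 0.74 ± 0.09. In all 18 of 23 fell, 13 at least 2-fold (56.5%, against 24.1% of all genes), and the median was -1.99. Pirb and Ceacam1 are also made by macrophages and other myeloid cells.

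Transcription factors of B cell identity did not move together. Pax5, which fixes the B lineage, read 6.96, 6.62 and 7.02 at 0 h and 6.47, 6.79 and 6.33 after LPS and fell by only 0.34 ± 0.11, with groups that overlap. The call was lost without 0 h replicate 1 or 3 or LPS replicate 3 (adjusted p = 0.052, 0.063 and 0.073). It was also lost in limma on the 6 B cell arrays alone (adjusted p = 0.098) and with array medians set equal (0.059). Ebf1 (-0.36) and Bcl6 (-0.17) did not pass. Hhex fell from 10.71, 10.65 and 10.68 to 2.73, 2.70 and 3.38, Ets1, which holds back plasma cell differentiation, by 3.69 ± 0.09, Ikzf3 (Aiolos) by 3.65 ± 0.12, Bach2, a repressor of the plasma cell programme, by 2.52 ± 0.05 and Runx1 by 3.56 ± 0.19. Id2 rose by 2.66 ± 0.09 while Id3 fell by 2.55 ± 0.08. Zbtb32, a repressor induced in activated B cells, rose by 3.45 ± 0.17, from 3.46, 3.31 and 3.51. Of 33 tested factors 21 fell (63.6%, against 42.3% of all genes), 17 at least 2-fold (51.5%, against 24.1%), and 9 rose (27.3%, against 37.6%). Plasma cell and germinal centre genes were near the background, with 6 of 14 rising and 6 falling (42.9% each, against 37.6% and 42.3% of all genes). Prdm1 (Blimp-1) read between 2.82 and 3.50 on all 6 arrays and was under the level filter, Xbp1 fell by 0.49 ± 0.07, and Jchain (-0.81) and Mzb1 (-4.12) fell. Ung (3.25), the uracil glycosylase of class switching, and the death receptor Fas (2.14) rose.

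Marginal zone B cells answer blood-borne bacteria and LPS readily. Of 18 tested genes of marginal zone and follicular B cells 10 fell (55.6%, against 42.3% of all genes), 9 at least 2-fold (50.0%, against 24.1%), and 7 rose (38.9%, against 37.6%). Cd1d1, which presents lipids, read 12.47, 12.43 and 12.62 at 0 h and 7.14, 6.57 and 7.27 after LPS, Asb2 fell by 6.25 ± 0.18, and the complement receptor Cr2 by 2.0 ± 0.18. Targets of Notch2, the receptor that directs this fate, fell too: Hes1 from 7.34, 7.60 and 6.98 to 2.45 on all LPS arrays, Hes5 by 1.93 ± 0.07 and Dtx1 by 2.11 ± 0.07.

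Presentation of antigen on MHC class II showed a split between the presenting molecules and the loading machinery. The chains H2-Aa, H2-Ab1 and H2-Eb1 and the invariant chain Cd74 fell by less than 2-fold (-0.61, -0.53, -0.78 and -0.46; the call on Cd74 was lost without 0 h replicate 3 or LPS replicate 1, with adjusted p = 0.056 and 0.052), and read at least 13.38 on every array. Large falls were rare at such levels: 5.66% of genes with a mean level over 13 fell at least 2-fold, against 24.1% of all genes. Whether the high signal limits the size of these falls was not tested. The peptide editor H2-DMa read 12.11, 12.10 and 12.12 at 0 h and 7.93, 7.99 and 7.97 after LPS, and H2-DMb2 fell by 3.05 ± 0.09. Its inhibitor H2-Oa read 12.58, 12.48 and 12.66 at 0 h and 7.58, 7.39 and 7.37 after LPS, and H2-Ob fell by 2.24 ± 0.09. Both subunits of the editor and of its inhibitor were thus far lower on all LPS arrays. Ciita, the master activator of class II transcription, read 9.03, 9.13 and 9.13 at 0 h and 5.46, 3.32 and 5.32 after LPS, with wide scatter after LPS. Marchf1, the ubiquitin ligase that removes class II and Cd86 from the surface, read 11.70, 11.51 and 11.69 at 0 h and 2.28, 2.24 and 2.24 after LPS, a fall of at least 9.38 and the deepest of any autosomal gene at a level of 7 or more. Of 21 tested members 16 fell (76.2%, against 42.3% of all genes), 9 at least 2-fold (42.9%, against 24.1%). In the class I pathway Nlrc5, the class I activator, rose by 1.40 ± 0.07 and Erap1 by 1.53 ± 0.17, whereas H2-K1 (-0.40) and H2-D1 (-0.41) fell slightly and B2m (0.12) did not pass. The immunoproteasome subunits Psmb8 (-1.22), Psmb9 (-1.05) and Psmb10 (-1.20) fell, while the constitutive subunits that they replace, Psmb5 (1.33), Psmb6 (1.18) and Psmb7 (0.74), rose.

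**Figure D4:**
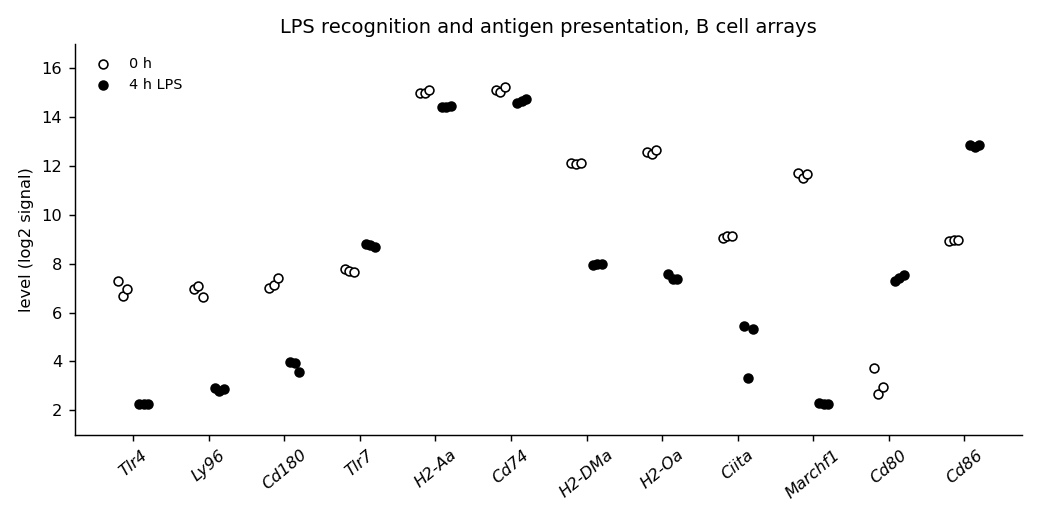
Log2 level of 12 genes of LPS recognition and antigen presentation on each B cell array; open points are the 3 arrays at 0 h and filled points the 3 after LPS. Tlr4, Ly96, Cd180, Ciita, H2-DMa, H2-Oa and Marchf1 drop by more than 3 log2 units, H2-Aa and Cd74 by less than 1, and Cd86, Cd80 and Tlr7 rise.

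The main ligands by which B cells costimulate T cells rose. Of all 21 tested B7 ligands and costimulatory molecules, however, 8 rose (38.1%, against 37.6% of all genes) and 6 fell (28.6%, against 42.3%). Cd86 read 8.93, 8.98 and 8.95 at 0 h and 12.85, 12.78 and 12.84 after LPS, a difference of 3.87 ± 0.18, and Cd80 read 3.74, 2.65 and 2.93 at 0 h and 7.27, 7.42 and 7.54 after LPS, a difference of 4.30 ± 0.21. Both are ligands of Cd28, and no LPS array overlapped a 0 h array. Cd83, which keeps Marchf1 from class II, rose by 2.64 ± 0.10, Cd40, the receptor for T cell help, by 1.23 ± 0.19, and the Pdcd1 ligands Cd274 (PD-L1) by 1.76 ± 0.06 and Pdcd1lg2 by 1.73 ± 0.19. Icosl, by contrast, fell from 10.52, 10.80 and 10.66 to 8.85, 8.89 and 8.66, and the SLAM receptors Slamf6 (-3.03), Cd84 (-2.31) and Cd48 (-1.35) fell. In the TNF family, Tnfrsf13c, the BAFF receptor, rose by 0.79 ± 0.18, and Tnfrsf13b (TACI), another receptor for BAFF, fell by 1.14 ± 0.11.

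Survival genes were exchanged within the Bcl2 family. Bcl2l1 (Bcl-xL) read 6.27, 6.32 and 6.43 at 0 h and 10.68, 10.57 and 10.75 after LPS, whereas Bcl2 fell by 1.11 ± 0.08 and Mcl1, at 13.79 and 13.65, did not pass, with -0.90 when its probe sets were averaged. Pro-death members rose at the same time: Bcl2l11 (Bim) by 2.55 ± 0.06, Bbc3 (Puma) by 2.80 ± 0.23 and Pmaip1 (Noxa) by 2.01 ± 0.10. Cflar, which blocks death receptors, rose by 2.09 ± 0.08, and Casp9 (-3.74), Casp6 (-3.59), Casp8 (-1.16) and Casp1 (-1.76) fell while Casp4, a sensor of LPS in the cytosol, rose by 2.50 ± 0.19. The counts were near the background, with 11 of 28 rising and 11 falling (39.3% each, against 37.6% and 42.3% of all genes).

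Myc read 6.92, 7.21 and 7.29 at 0 h and 12.15, 11.81 and 12.07 after LPS, a difference of 4.87 ± 0.43 (adjusted p = 1.1e-07). Its partner Max rose by 1.02 ± 0.19. Of the antagonists that compete for Max, Mxd4 fell from 9.24, 9.17 and 9.37 to 3.46, 3.46 and 2.69, Mxi1 rose by 1.12 ± 0.09 and Mnt by 0.58 ± 0.12, and Mxd1 (0.04) did not pass. Mycn was at 3.93 on all 6 arrays. The ATPases Ruvbl1 (2.20) and Ruvbl2 (2.74), cofactors of Myc, rose.

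Genes that make ribosomes rose as one. Of 74 tested genes of Pol I and rRNA processing 72 rose and none fell, 66 rose at least 2-fold (against 18.7%), and the median was 2.23; Taf1b (0.36) and Polr1d (0.15) did not pass, although another probe set of Polr1d gave 1.24. Rrp12, a ribosome export factor, read 5.42, 5.22 and 4.93 at 0 h and 9.79, 9.70 and 9.85 after LPS. Polr1b, a large Pol I subunit, rose by 3.72 ± 0.13, Rrp9 by 4.87 ± 0.28, Nop16 by 3.48 ± 0.09 and Ncl, already at 13.11, by 1.73 ± 0.14. The proteins of the ribosome itself did not follow: of 47 cytoplasmic ribosomal protein genes 8 rose and 12 fell, with a median of -0.05, whereas 63 of 76 mitochondrial ribosomal protein genes rose, with a median of 0.81. Of 19 cytosolic tRNA synthetases 17 rose and none fell, led by Cars (3.89) and Yars (3.16), with a median of 2.20, and of 25 nuclear transport receptors 22 rose, among them Ipo4 (3.41) and Rcc1 (3.61). Pol III subunits rose in 8 of 9 cases. The ninth showed a switch of paralogues, Polr3g rising by 2.60 ± 0.16 and Polr3gl falling by 2.36 ± 0.16.

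Building blocks for growth rose in several pathways. In purine and pyrimidine synthesis 20 of 31 rose, with a median of 1.32: Uck2, a salvage kinase, read 5.10, 5.84 and 5.51 at 0 h and 10.25, 10.18 and 10.30 after LPS, Ctps rose by 3.16 ± 0.08, and Ppat, the committed step of purine synthesis, by 2.94 ± 0.12. In the serine and one-carbon pathway 13 of 17 rose, among them Mthfd2 (4.10), the folate carrier Slc19a1 (3.73), Psat1 (3.64) and Shmt2 (3.57). Srm, which makes spermidine, rose by 3.87 ± 0.08, and Odc1, the entry to polyamines, by 1.19 ± 0.09. In glycolysis and lactate export 15 of 28 rose (53.6%, against 37.6% of all genes) and 8 fell (28.6%, against 42.3%). Hk2 read 4.85, 5.97 and 5.81 at 0 h and 10.12, 10.09 and 10.21 after LPS, and Ldha rose by 2.14 ± 0.08. Hk1 (-1.44), the glucose transporters Slc2a1 (-0.93) and Slc2a3 (-1.93) and Pdk1 (-2.64) fell, and Gapdh (-0.08) did not pass. Amino acid carriers went both ways, with 12 of 25 up and 12 down (48.0% each, against 37.6% and 42.3% of all genes). Slc7a5 (4.31), Slc1a4 (4.40), Slc7a1 (2.70) and the peptide carrier Slc15a3 (5.33) rose, and Slc43a2 (-3.55), Slc15a4 (-2.66) and Slc38a5 (-2.01) fell.

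Cholesterol genes moved in opposite directions according to role. Of 32 tested SREBP targets and enzymes of sterol and fatty acid synthesis 21 rose, 17 at least 2-fold, with a median of 1.52. Sqle, an early oxygen-requiring step, read 4.97, 5.18 and 5.14 at 0 h and 10.06, 10.05 and 9.99 after LPS. Idi1 (4.27), Cyp51 (4.09), Fdps (3.80), Hmgcs1 (3.42) and Fasn (3.41) rose. The members were not uniform, since Scd2 fell by 3.38 ± 0.07, Ebp by 1.06 ± 0.07 and Srebf1 (-0.09) did not pass. Of 8 genes of cholesterol efflux and LXR targets 7 fell, all at least 2-fold, and none rose. Abca1, the efflux pump, read 11.41, 11.47 and 11.47 at 0 h and 8.48, 8.21 and 8.30 after LPS. Mylip, which degrades the LDL receptor, fell by 3.50 ± 0.07, and Apoe, which macrophages also make, by 2.64 ± 0.09.

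Stress genes rose selectively. Hspa1a was at 2.24 on all 0 h arrays and at 8.91, 8.87 and 8.98 after LPS, and its near-identical neighbour Hspa1b rose by 6.53 ± 0.12; probes may not tell these copies apart. In all 32 of 39 cytosolic chaperones rose, among them all 8 tested subunits of the Cct/Tcp1 chaperonin, by 0.96 to 1.92. Genes of Atf4 and the integrated stress response, a list that holds targets of Atf4 and also the kinases upstream of it, rose in 15 of 19 cases. Of its targets, Trib3 rose from 2.41 on all 0 h arrays to 7.62, 7.74 and 7.53, Chac1 from the floor to 7.01, 6.55 and 7.32 and Asns, which makes asparagine, by 4.26 ± 0.16. Atf4 itself rose by 1.52 ± 0.11. Of 37 genes of ER folding and the unfolded protein response 17 rose, but 3 of them at least 2-fold, and 10 fell: Hspa5 (BiP) rose by 1.15 ± 0.07, Pdia4 fell by 3.90 ± 0.11 and Eif2ak3 (PERK) by 1.91 ± 0.07.

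Brakes on the response were themselves changed. Dusp5, a nuclear phosphatase of ERK, read 5.04, 4.86 and 4.99 at 0 h and 10.68, 10.72 and 10.79 after LPS, and Dusp6, its cytoplasmic counterpart, read 10.45, 10.41 and 10.35 at 0 h and 3.14, 3.01 and 3.05 after LPS. Of these related phosphatases one thus rose and the other fell on every array. Socs3 rose by 3.60 ± 0.09, Zc3h12a (Regnase-1), a nuclease that degrades Il6 mRNA, by 2.30 ± 0.19, and the Pim kinases by 2.98 ± 0.10 for Pim1, 2.24 ± 0.12 for Pim2 and 2.14 ± 0.15 for Pim3. Zfp36l2 (-2.33), Zfp36 (-1.56) and Zc3h12d (-3.35), all of which destabilise mRNA, fell. Mir155hg, the host of the miR-155 printed above, read 5.26, 5.20 and 4.76 at 0 h and 12.44, 12.46 and 12.51 after LPS, a difference of 7.40 ± 0.18; the array reads the host transcript and not the mature miRNA. Among the regulators of G proteins and cyclic AMP, Adcy7, a major adenylyl cyclase of B cells, read 12.37, 12.49 and 12.44 at 0 h and 6.66, 6.65 and 6.52 after LPS, and Rgs18 (-5.31), Rgs14 (-4.17) and Rgs2 (-3.47) fell, while Rgs1 rose by 3.79 ± 0.16.

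Genes of quiescence were lower. Of 36 tested Foxo factors, their targets and related brakes 24 fell, 20 at least 2-fold (against 24.1%), with a median of -1.23. Rbl2 (p130), the pocket protein of resting cells, read 10.61, 10.53 and 10.41 at 0 h and 6.42, 6.80 and 6.30 after LPS. Cdkn1b (p27), the inhibitor of G1 kinases, fell by 2.71 ± 0.13, Ccng2 by 3.90 ± 0.14, Sesn3 by 3.35 ± 0.11, Foxo1 by 1.36 ± 0.12 and Txnip by 2.45 ± 0.09. Cdkn1a (p21), in contrast, rose by 2.67 ± 0.23. Ccnd2, the cyclin D of B cells, read 9.13, 9.23 and 9.30 at 0 h and 13.78, 13.79 and 13.79 after LPS, Cdk6 rose by 2.01 ± 0.06 and Cdk4 by 1.5 ± 0.09, and Ccnd3 (-1.48) and Ccnd1 (-2.23) fell.

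Genes of cell division were lower at 4 h. Of 37 tested mitosis genes 1 rose (Ckap2, 0.49, a call lost without 0 h replicate 1 or 3 or LPS replicate 2, with adjusted p = 0.073, 0.08 and 0.12) and 33 fell, with a median of -0.89, among them Mki67 (-0.95), Aurkb (-2.02) and Ccna2 (-1.20). Replication genes were mixed, with 15 of 44 up (34.1%, against 37.6% of all genes) and 22 down (50.0%, against 42.3%). Pold2 rose by 2.74 ± 0.08, Pcna by 0.32 ± 0.06 and Mcm3 by 0.53 ± 0.08, whereas Tk1 (-2.81), Rfc1 (-2.27), Cdc6 (-1.87) and Rrm2 (-1.34) fell. Erythroid precursors also divide, and erythroid markers fell in the same comparison. The part of these cells in the falls was not tested.

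Several gene families fell as blocks. All 8 Gimap GTPases, which support lymphocyte survival, fell, Gimap7 from 10.12, 10.04 and 10.12 to 4.46, 3.85 and 3.83. Of 11 tested cathepsins, the proteases of lysosomes, 9 fell (81.8%, against 42.3% of all genes) and none rose. Ctsa fell by 4.20 ± 0.07, Ctso by 3.65 ± 0.10 and Ctsh by 3.09 ± 0.12, though the class II protease Ctss by only 0.52 ± 0.06. Of 13 V-ATPase subunits, which acidify lysosomes, 10 fell (76.9%, against 42.3% of all genes). Macrophages are rich in lysosomes, and their markers fell as well, but their part in these falls was not tested. Sialic acid genes fell in 16 of 21 cases: Cmah, which makes the mouse form of sialic acid that Cd22 prefers, read 10.67, 10.58 and 10.63 at 0 h and 2.25, 3.04 and 2.25 after LPS (another probe set, the brightest on the B cell arrays, gave -1.12), and St6gal1, which builds the Cd22 ligand, fell by 3.59 ± 0.07. Among chromatin enzymes Kdm6b, an H3K27 demethylase induced by LPS, rose by 4.04 ± 0.14, and Hdac7 (-4.28), Kdm7a (-3.05), Smarca2 (-3.04) and Kat2b (-2.83) fell. In the circadian clock Bhlhe40 (4.35), Nfil3 (3.88), Cry1 (1.70) and Per2 (1.33) rose and Arntl (Bmal1) fell by 1.72 ± 0.10; times of day are not given in the labels.

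The response was set against that of T cells to 4 h of ConA, which shares no array with it, to see where it differed; cells and agents differ together and cannot be told apart. The difference between the responses passed for 5982 of 9045 genes (66.1%). Of the 3400 genes that rose in B cells 2186 rose in T cells and 292 fell there. The antiviral list stood apart: the difference passed for all 36 genes and was higher in B cells for each, and the T cell median was -0.45 with 23 falling, against 2.04 in B cells. Ifit1, for example, changed by 7.36 in B cells and -2.19 in T cells, Mx1 by 4.15 and -1.43, and Dhx58 by 2.84 and -1.98. For nucleolar genes both responses were upward, with medians of 2.23 and 1.17, and the difference passed for 69 of 74, each higher in B cells. The list of Atf4 and the integrated stress response had medians of 1.65 and 0.10. Stat4 rose by 2.75 ± 0.08 in B cells and changed by -0.14 in T cells, where it did not pass, and Jun rose by 7.02 ± 0.23 against -0.17; both differences passed (adjusted p = 3.7e-11 and 2.7e-10). For guanylate-binding protein and IRG genes the difference passed for 8 of 9 and was lower in B cells for 6, with medians of 0.20 in B cells and 1.81 in T cells.

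**Figure D5:**
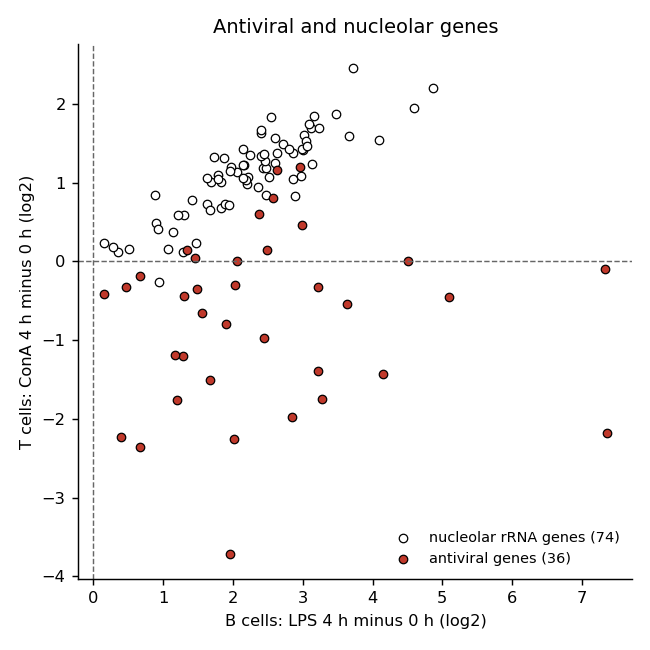
Difference between 4 h and 0 h (log2) in B cells with LPS (x axis) against T cells with ConA (y axis) for the 36 antiviral genes (filled) and the 74 nucleolar rRNA genes (open); dashed lines mark no change. All 36 antiviral genes lie right of 0 on the x axis and 23 of them fell in T cells, while all but 1 of the nucleolar genes lie in the upper right.

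Sex-linked genes bear on which animals gave the RNA. Xist, the transcript of the inactive X chromosome in female cells, read 12.00, 11.98 and 12.00 at 0 h and 2.42, 2.24 and 2.38 after LPS, and its neighbour Ftx fell by 2.45 ± 0.17. Transcripts from the Y chromosome, Eif2s3y, Uty and Kdm5d, were found at both times and did not pass (0.17, -0.13 and -0.01; Eif2s3y fell, at -1.29, when its probe sets were averaged). The 0 h arrays thus held both Xist and Y-linked transcripts, and the LPS arrays had Xist at or near the floor. Over 271 tested X-linked genes the median difference was -0.29, against -0.04 for 8760 autosomal genes. T cells showed the same Xist pattern, with a difference of -9.06 at 4 h. The labels do not say which mice gave which sample. A difference in sex cannot be told apart from LPS here, and its part in other differences was not tested.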

How the data were processed

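The values analysed were the series' deposited table of log2 signals for 45101 probe sets on 15 Affymetrix mouse arrays. Per the submitters' processing notes the authors made them with GCRMA, at a version that the sources used here do not give; nor do they say whether all arrays were normalized together. GCRMA subtracts a background modelled from probe base composition, which gives the floor at 2.24, and scales the signal distributions of arrays to one another, so a change in total RNA per cell is not seen in these log2 values. The number of arrays, 3 in each group, limits the precision.

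Probe sets were named from the platform annotation: 34958 carried 1 symbol, 932 several and 9211 none. Each gene was represented by its brightest probe set (mean of the 15 arrays), and genes with a group mean of at least 5 were tested. limma 3.58.1 (R 4.3.3) fitted a mean for each of the 5 groups, and the spread shared by them (10 residual and 3.16 prior degrees of freedom) gave the standard errors, with Benjamini-Hochberg adjustment over 9045 genes.

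The gene lists and named genes were chosen with earlier results of these data known. Named were Myc, the 20 largest rises and falls (called, higher group mean at least 7, no overlap), the largest changes in each list and members that did not pass; a few others, the related pairs among them, were named after their values were seen. Alternatives covered the level filter, the choice or averaging of probe sets, array medians set equal, cyclic loess, a fit of the 6 B cell arrays, a trended robust prior, a replicate block and leaving out each B cell array.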

Additional observations from a re-analysis of the deposited data

Results flagged for a closer look

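Of all tested genes 89 moved at least 2-fold in opposite directions in B cells given LPS and in T cells given ConA, each with a difference that passed the interaction test in limma; 34 rose in B cells and 55 fell. The 22 of them named here follow. Antiviral genes rose in B cells and fell in T cells: Ifit1 by 7.36 against -2.19, Mx1 by 4.15 against -1.43, Ifit3 by 3.27 against -1.75 and Dhx58 by 2.84 against -1.98. The heat shock genes Hspa1a (at least 6.68, from the floor, and -4.31) and Hspa1b (6.53 and -5.10) did the same. So did Ccl5 (3.21 and -1.86), Il7r (3.02 and -1.52) and Runx3 (1.16 and -1.16).

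Genes that fell in B cells and rose in T cells included antigen presentation genes, H2-DMa (-4.15 and 1.5) and H2-DMb2 (-3.05 and 1.32), and transcription factors and their partners, Egr3 (-2.34 and 2.93), Nab2 (-1.15 and 1.65), Bach2 (-2.52 and 1.08), Ikzf3 (-3.65 and 1.27) and Hes5 (-1.93 and 3.29). Malt1 (-1.55 and 1.38), Zc3h12d (-3.35 and 2.61) and Cr2 (-2.0 and 3.23) showed the same split, as did the neutrophil genes S100a8 (-3.01 and 2.71) and S100a9 (-3.23 and 2.45). Cxcl9 met the same rule (-1.31 and 2.34) but was under 5 on every B cell array, so its value in B cells is a difference between background readings. Cells and agents differ together in these comparisons and cannot be told apart.

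Probe sets that carry no gene symbol or several were not used above. Among the 1771 of them with a group mean of at least 7, 339 rose at least 2-fold after LPS and 434 fell at least 2-fold. With 3 arrays in each group no single array was tested as an outlier.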

How the results depend on the processing

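The 3 counts of genes changed, risen and fallen and the count of the interaction stayed within 1.5 times the reported ones under every alternative run. Changed genes numbered from 6556 (all probe sets averaged, 8122 tested) to 7563 (no level filter, 18194 tested), and 7018 to 7088 when each B cell array was left out. The share of calls that were upward was 47.1% as reported and between 46.1% and 49.9% otherwise. With a replicate block 7162 genes were called, and it changed the call of no named gene. Deviations of B cell arrays from their group means correlated at -0.04 to 0.03 for the 3 pairs of the same number. For pairs of different numbers the range was -0.08 to 0.10. The numbers thus showed no sign of pairing, but so few pairs cannot settle whether arrays of 1 number shared a preparation. Of 391 named genes with a test, 1 reversed: Eif2s3y, at -1.29 when its probe sets were averaged. Averaging also moved the values of 51 called named genes by over 1.5 times, 48 of them toward 0 and 3 (Tlr7, Slc25a5 and Irf8) away from it; the cause was not tested. Calls lost under at least 1 alternative were those of Pax5, Cd74, Ckap2, Irf8, Bcl10, Notch2 and Ticam1. Calls gained under at least 1 were those of 13 genes: Stat2, Fcgr2b, Fcer2a, Taf1b, Ebf1 and Mcl1, each when the B cell arrays were fitted alone, and Polr1d, B2m, Bcl6, Gapdh, Ifng, Il4 and Trim21. Array medians set equal moved the median of all genes to 0.02 and cyclic loess to -0.07. Of 93 list medians 56 were at least 0.5 in size, and 2 of their values under the alternatives changed sign. Over all lists and alternatives 358 medians moved by at least the standard deviation of that median between LPS arrays, and 1129 moved by less. For the 40 named genes with a mean under 3 in the lower group the size is best taken as a lower bound.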

Other observations

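Among the 20 largest rises and 20 largest falls, several genes belong to none of the groups described above. Grasp, a scaffold protein of endosomes, read 2.39, 2.28 and 2.28 at 0 h and 10.28, 10.31 and 10.25 after LPS, a difference of at least 7.97 ± 0.20. Siah2, a ubiquitin ligase, rose by 5.89 ± 0.16 (another probe set, the brightest on the B cell arrays, gave 3.76). Txnrd3, a thioredoxin reductase, rose by 6.41 ± 0.21, Pogk by 5.81 ± 0.17 and Lad1 by at least 5.73 ± 0.12. On the other side Tm6sf1, a lysosomal membrane protein, read 12.98, 13.13 and 12.89 at 0 h and 4.84, 5.25 and 4.99 after LPS. Trim7 read 10.86, 10.88 and 11.05 at 0 h and 3.05, 3.15 and 2.55 after LPS, and Lrrk2, a kinase known from Parkinson disease and present in B cells and myeloid cells, fell by 7.88 ± 0.14. Srpk3 fell by 7.48 ± 0.13, Pld4, an endosomal nuclease, by 7.36 ± 0.09, Ccdc69 by 6.66 ± 0.36 and Lbh by 6.49 ± 0.16. Slc40a1 (ferroportin, -7.08) and Fcna (at the floor on all LPS arrays) are macrophage genes and fell with the macrophage markers. Of 13 tested iron genes 8 fell (61.5%, against 42.3% of all genes) and 2 rose (15.4%, against 37.6%).

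In 22 pairs of related genes, listed after their values were seen, one member rose and the other fell. Ctps rose by 3.16 ± 0.08 and Ctps2 fell by 2.26 ± 0.08, Prps1 rose by 1.97 ± 0.11 and Prps2 fell by 1.21 ± 0.06, and Insig1 (3.67) and Insig2 (-1.06) moved apart likewise. Slc25a5 (0.71) and Slc25a4 (-1.15) exchange ADP for ATP across the inner mitochondrial membrane. Runx3 (1.16) rose while Runx1 fell, Ets2 (3.45) rose while Ets1 fell, and Orai1 rose while Orai2 (-3.18) fell. Kdm6a, the X-linked relative of Kdm6b, fell by 1.31 ± 0.11. Traf5 (-2.07) fell beside the rise of Traf1. These pairs were chosen for their difference and carry no test beyond each gene's own.

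Of 6 tested Schlafen genes 5 rose, with a median of 1.28, against -0.95 in T cells given ConA. Of 26 nuclear pore genes 23 rose (88.5%, against 37.6% of all genes), with a median of 1.00. Of 46 proteasome genes 38 rose (82.6%), with a median of 0.77. The histone genes fell in 6 of 9 cases (66.7%, against 42.3% of all genes) and rose in none (against 37.6%). Of 218 zinc finger genes named Zfp 109 fell (50.0%, against 42.3% of all genes) and 56 rose (25.7%, against 37.6%). The share that fell at least 2-fold was near the background, 27.1% of all 218 (against 24.1%).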
